A study of Homo sapiens with 4 samples.

Results

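Heat shock chaperone genes were followed through 4 A-seq libraries of HEK293 cells, an established human embryonic kidney line. The set held 7 genes. They were HSP90AA1, HSP90AB1, HSPA8, HSPA5, HSPA13, HSPA9 and HSPD1. HSP90AA1 and HSPA13 were chosen by measured values, the large changes in the read shares of their 3′ end sites in these libraries, so their moves are given as a description with no p. The other 5 are chaperones of the same families. Members were found as read 3′ ends within a fixed strand window of each gene. Their windows held 22 of the 33723 3′ end sites that averaged at least 1 read per 1000000 library reads (RPM), and the genes stand beside 18156 loci, which are groups of sites within 10 kb of a most used site.

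A-seq counts the 3′ ends of polyadenylated RNA. A read end is taken to mark where a transcript was cut and received its poly(A) tail. Reads primed inside A-rich stretches were not separated from such ends. The groups had 1 library each: cells with siRNA against CF Im 68, cells with siRNA against CstF-64, cells with a control siRNA, and cells with no siRNA. The siRNA-treated cells were harvested 3 days after transfection, and all 4 libraries came from the same cell line. CF Im 68 belongs to cleavage factor I, which binds UGUA elements before a poly(A) site, and CstF-64 is the subunit of the cleavage stimulation factor that binds U-rich and GU-rich elements after it. The libraries held 12792623 reads under CF Im 68 siRNA, 7343112 under CstF-64 siRNA, 13443454 under control siRNA and 15806975 without siRNA. A group is 1 library here, which leaves the variation between cultures unmeasured. Intervals below are exact 95% intervals that cover counting error only. The control siRNA and no siRNA libraries also differed in transfection, and their difference is given as background. In bulk RNA, fewer cells with a transcript and less of it per cell cannot be told apart. Levels in RPM are relative to all reads of a library.

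Heat shock proteins are chaperones that bind unfolded or unstable proteins and spend ATP to help them fold. The HSP90 proteins, with an inducible form from HSP90AA1 and a constitutive form from HSP90AB1, hold client proteins such as kinases and steroid receptors in the cytosol. HSP70 proteins bind exposed hydrophobic stretches. HSPA8 encodes the constitutive cytosolic HSC70, HSPA5 the endoplasmic reticulum chaperone BiP, HSPA9 the mitochondrial mortalin, and HSPA13 a small microsome-associated member that lacks the peptide-binding domain of the family. HSPD1 encodes HSP60, which forms a folding chamber in mitochondria together with HSP10. Many genes carry more than 1 poly(A) site, and the choice between them sets the length of the 3′ untranslated region and, for a site in an intron, can cut off coding sequence.

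The promoter stretches below show which of the genes carry classical stress elements, since their totals are set beside these elements further on. Promoters were read from RefSeq (build GRCh38.p14), from 250 bases before to 50 bases after each listed start, and all 7 genes were matched, with 11 listed starts. The heat shock element was searched on both strands as GAA, TTC and GAA, with 2 bases of any kind (N) between neighbouring triplets. It occurred in 4 of the 7 genes (HSP90AA1, HSP90AB1, HSPA8 and HSPD1), against 166 of 27305 genes with a promoter in the table (0.608%). The endoplasmic reticulum stress element, searched on both strands as CCAAT, 9 bases of any kind and CCACG, occurred in HSPA5 alone of the 7, against 25 of 27305 genes (0.0916%). Each match is a description of letters and not a bound site, and a gene without one lacks only these letters in this window. The stretches are printed 5′ to 3′ on the gene's strand, with the element in capitals. For HSPD1, 2 overlapping matches form a run of 18 capitals.
HSP90AA1, chr14:102087112-102087141, minus strand: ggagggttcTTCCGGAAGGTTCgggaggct
HSP90AB1, chr6:44247769-44247798, plus strand: gggagcaggTTCTGGAAGATTCatgggctc
HSP90AB1, chr6:44247822-44247851, plus strand: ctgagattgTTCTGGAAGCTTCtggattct
HSPA8, chr11:123062346-123062375, minus strand: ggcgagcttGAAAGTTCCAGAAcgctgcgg
HSPA8, chr11:123062171-123062200, minus strand: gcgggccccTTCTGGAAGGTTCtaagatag
HSPD1, chr2:197500061-197500090, minus strand: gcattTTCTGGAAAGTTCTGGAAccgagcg
HSPA5, chr9:125241386-125241415, minus strand: ccttcaCCAATCGGCGGCCTCCACGacggg

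On the RNA side, read ends were counted on hg19. The windows, with their strand, were chr14:102547000-102606500 minus for HSP90AA1, chr6:44214500-44222000 plus for HSP90AB1, chr11:122928000-122933500 minus for HSPA8 and chr9:127997000-128004000 minus for HSPA5. They were chr21:15743000-15756000 minus for HSPA13, chr5:137890000-137911500 minus for HSPA9 and chr2:198351000-198365500 minus for HSPD1. No hg19 annotation was used here, so no site below is assigned to an exon, an intron or an untranslated region. Besides sites of at least 1 RPM, sites with at least 1% of a window's reads are described. Sites are named by their distance in nucleotides (nt) upstream of the most 3′ site of the same gene.

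HSP90AA1 stood out by where its read ends lay under CF Im 68 siRNA, and HSPA13 by both its ends and its level. HSP90AA1 and HSPD1 stood out by low levels under CstF-64 siRNA. The most used site of HSP90AB1, HSPA8, HSPA5, HSPA9 and HSPD1 was the same in each of the 4 libraries. The sum over the 7 genes was 869 RPM under CF Im 68 siRNA, 541 RPM under CstF-64 siRNA, 811 RPM under control siRNA and 706 RPM without siRNA. The sum was therefore lowest under CstF-64 siRNA, the library with the fewest reads.

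HSP90AA1 was the most read member, with 605 of 18156 loci above it in mean RPM. Its window held 267 RPM under CF Im 68 siRNA (3410 reads), 116 RPM under CstF-64 siRNA (851 reads), 235 RPM under control siRNA (3159 reads) and 319 RPM without siRNA (5047 reads). The CstF-64 siRNA library was thus the lowest and the no siRNA library the highest. The log2 ratio of CstF-64 siRNA was -1.02 (-1.13 to -0.91) to control siRNA and -1.46 (-1.57 to -1.36) to no siRNA. For CF Im 68 siRNA it was 0.18 (0.11 to 0.25) to control siRNA and -0.26 (-0.32 to -0.20) to no siRNA, so the total lay between those of the 2 controls. Control siRNA itself was lower than no siRNA, at a log2 ratio of -0.44 (-0.51 to -0.38).

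The 3′ ends of HSP90AA1 fell into 3 sites. The most upstream one, at hg19 position 102551279 on chromosome 14 and 3888 nt upstream of the last, held 34.7% of window reads under CF Im 68 siRNA (33.1 to 36.3%), 80.02% under CstF-64 siRNA (77.2 to 82.7%), 76.7% under control siRNA (75.2 to 78.2%) and 83.1% without siRNA (82.0 to 84.1%). The site 540 nt upstream of the last, at position 102547931, held 43.9% under CF Im 68 siRNA (42.2 to 45.6%), 9.28% under CstF-64 siRNA (7.42 to 11.4%), 3.17% under control siRNA (2.58 to 3.84%) and 3.27% without siRNA (2.80 to 3.80%). The minor site of the other libraries was therefore the leading one under CF Im 68 siRNA, and its share under CstF-64 siRNA also lay above both controls. The last site, at position 102547391, held 18.0% under CF Im 68 siRNA, 8.58% under CstF-64 siRNA, 16.4% under control siRNA and 12.4% without siRNA. Whether priming inside A-rich stretches added reads to any of these sites was not tested.

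**Figure D1:**
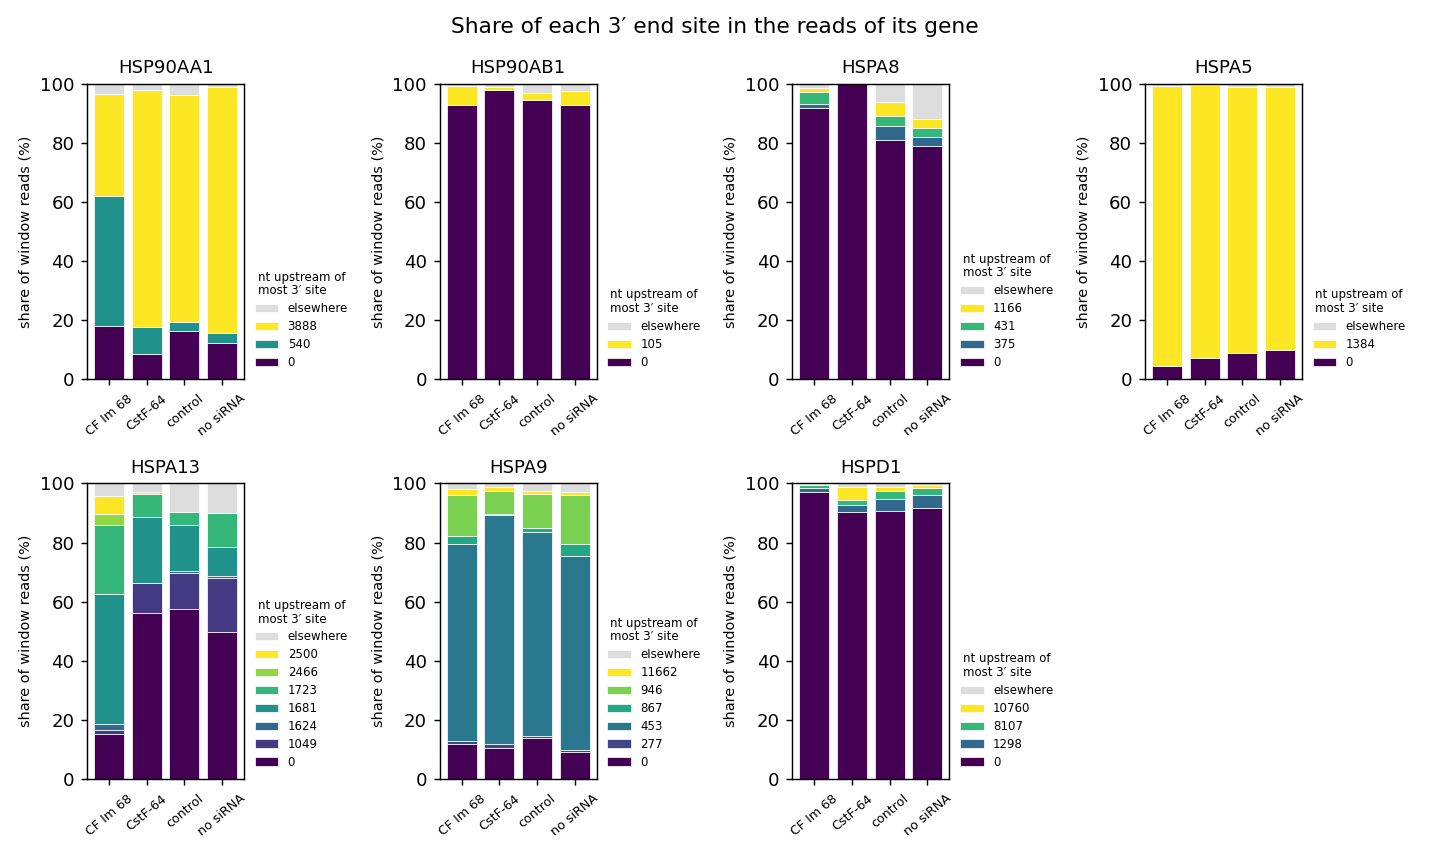
Share of each 3′ end site in the reads of its gene (y axis, percent of window reads), for the 4 libraries on the x axis and 1 panel per gene. Colours give the distance of a site upstream of the most 3′ site of the gene in nt, and grey is the reads outside sites. In HSP90AA1 the site at 540 nt fills 43.9% of the CF Im 68 siRNA bar and 3.17 to 9.28% of the other bars.

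In levels rather than shares, the most upstream HSP90AA1 site had 92.6 RPM under CF Im 68 siRNA (1184 reads), 92.7 RPM under CstF-64 siRNA (681 reads), 180 RPM under control siRNA (2424 reads) and 265 RPM without siRNA (4193 reads). The depleted libraries had nearly the same level at this site, at a log2 ratio of 0.00 between them (-0.14 to 0.13), and both were below the controls. The site at 540 nt had 117 RPM under CF Im 68 siRNA (1497 reads), 10.8 RPM under CstF-64 siRNA (79 reads), 7.44 RPM under control siRNA (100 reads) and 10.4 RPM without siRNA (165 reads), which put the CF Im 68 siRNA library 15.7-fold above control siRNA (12.8 to 19.5) and 11.2-fold above no siRNA. The last site had 48.0 RPM under CF Im 68 siRNA (614 reads), 9.94 RPM under CstF-64 siRNA (73 reads), 38.5 RPM under control siRNA (517 reads) and 39.5 RPM without siRNA (624 reads). Here the CstF-64 siRNA library stood apart, at log2 ratios of -1.95 (-2.33 to -1.60) to control siRNA and -1.99 (-2.36 to -1.64) to no siRNA.

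**Figure D2:**
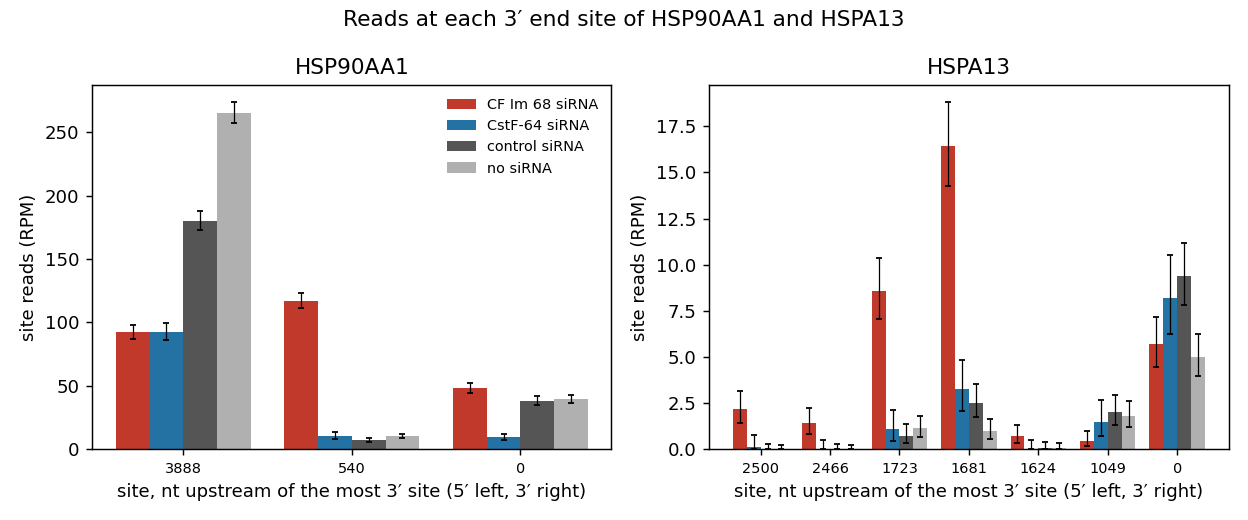
Bars give the level of each 3′ end site of HSP90AA1 and HSPA13 in RPM (y axis, from 0) by distance upstream of the most 3′ site in nt (x axis), with 1 colour per library and exact Poisson 95% intervals that cover counting error only. The HSP90AA1 site at 540 nt reaches 117 RPM under CF Im 68 siRNA and stays between 7.44 and 10.8 RPM in the other libraries.

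Averaged over its site reads, HSP90AA1 ended 1642 nt upstream of its last site under CF Im 68 siRNA (counting SE 29.5), 3230 nt under CstF-64 siRNA (SE 48.5), 3117 nt under control siRNA (SE 27.8) and 3290 nt without siRNA (SE 19.6). The mean end thus lay more downstream under CF Im 68 siRNA than in the other 3 libraries. For HSPA13 the CF Im 68 siRNA library stood apart on the other side. Its mean end lay 1493 nt upstream under CF Im 68 siRNA (SE 32.9), 655 nt under CstF-64 siRNA (SE 78.0), 527 nt under control siRNA (SE 51.4) and 629 nt without siRNA (SE 61.4).

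Site choice was compared across the genome with 1 pair per locus, made of its 2 most used sites, for the 4793 loci whose pair reached 50 reads in each library. Of the reads of a pair, the part at the upstream site is called the proximal share and given in percent. A locus counted as moved when the two-sided Fisher's exact test against control siRNA gave a Benjamini-Hochberg adjusted p below 0.05, and the share had shifted by 10 percentage points or more from both controls, the same way. The test compares 2 libraries and not conditions. Of the 7 chaperone genes, 4 had such a pair (HSP90AA1, HSPA5, HSPA9 and HSPA13), and each of the other 3 had 1 site with at least 5% of the locus reads. HSP90AA1 and HSPA5 had proximal shares of 96.0% and 90.9% under control siRNA, so neither could rise by 10 points, and only HSPA9 and HSPA13 could count as moved to the proximal site. Under CF Im 68 siRNA, 1 of the 4 counted as moved to the proximal site (HSPA13), where 24.2% of all tested loci did. A further 1 of the 4 counted as moved to the distal site (HSP90AA1), where 2.63% of tested loci did. Both were picked for these moves, so for them the rule only describes the values that chose them, no p is given, and the counts carry no evidence about chaperone genes.

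Under CstF-64 siRNA, 0 of the 4 pairs counted as moved to the proximal site (8.20% of tested loci) and 0 to the distal site (3.59%). Here too, only HSPA9 and HSPA13 could have counted as moved to the proximal site. HSPA5 and HSPA9, the pairs not picked for a move, are given with their adjusted Fisher p below. Between control siRNA and no siRNA, with 1 control and without the second condition, 0 of the 4 counted as moved in either direction, against 10.6% of loci towards the proximal site and 11.1% towards the distal one.

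The HSP90AA1 pair, with sites 3348 nt apart, had a proximal share of 44.2% under CF Im 68 siRNA (42.3 to 46.1%), 89.6% under CstF-64 siRNA (87.2 to 91.7%), 96.0% under control siRNA (95.2 to 96.8%) and 96.2% without siRNA (95.6 to 96.8%). The difference of CF Im 68 siRNA from control siRNA was -51.9 points, and 0.0626% of the tested loci had a lower value. HSP90AA1 was picked for this move, so its rank restates the pick and carries no evidence. CstF-64 siRNA differed by -6.43 points from control siRNA and by -6.61 points from no siRNA, in the same direction. The median over the 4793 loci was 4.84 points for CF Im 68 siRNA and 1.04 points for CstF-64 siRNA, both towards the proximal site. For this pair, HSP90AA1 therefore went against the median direction under both. With 96.0% under control siRNA, its share could not have risen by the 4.84-point median of CF Im 68 siRNA.

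**Figure D3:**
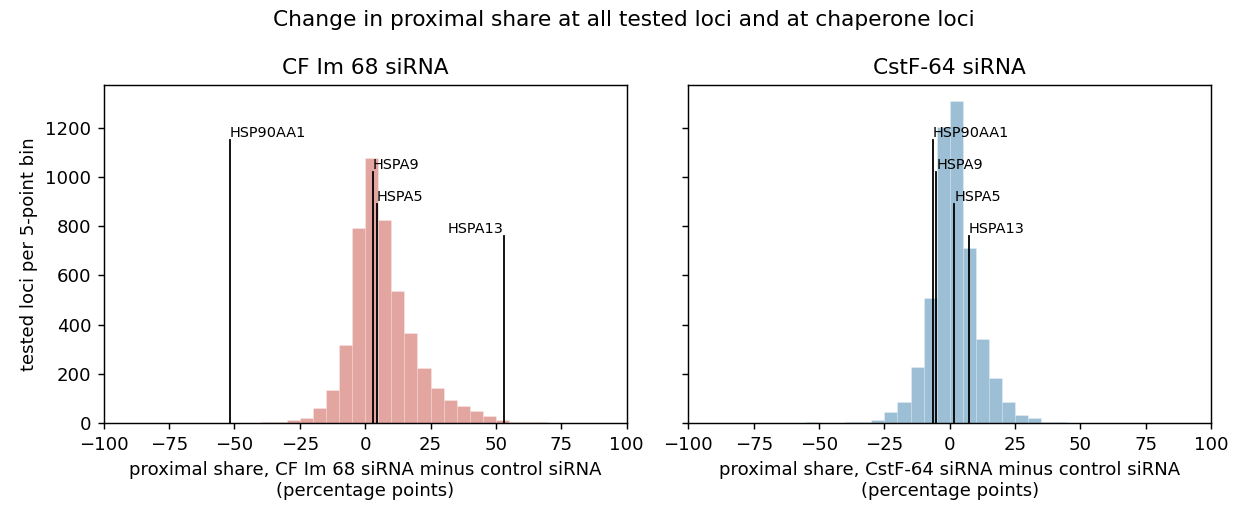
Number of loci (y axis) by the change in proximal share against control siRNA, in percentage points (x axis), over the 4793 tested loci, with the 4 chaperone pairs marked, for CF Im 68 siRNA and CstF-64 siRNA. Under CF Im 68 siRNA, HSP90AA1 lies at -51.9 points and HSPA13 at 53.0 points, near the opposite ends of the distribution. Both were picked for these moves, so their places restate the pick. HSPA5 and HSPA9 lie near the middle of the distribution.

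Because the CF Im 68 siRNA library helped to choose the HSP90AA1 pair, the pair was also formed on the controls alone. It then held the first and the last site, with proximal shares of 65.9% under CF Im 68 siRNA, 90.3% under CstF-64 siRNA, 82.4% under control siRNA and 87.0% without siRNA. The CF Im 68 siRNA library was the lowest in this pair too, with a smaller gap. The CstF-64 siRNA library was above both controls here, the reverse of its direction in the first pair, and by mean end it lay between the controls. By the 4 proximal shares, the 3 loci most like HSP90AA1 were on chromosome 16 plus at 50265742 and 50269218, on chromosome 9 plus at 88641877 and 88643430, and on chromosome 16 plus at 22095971 and 22098855 (hg19). Their distances were 9.99, 15.5 and 20.2 points, measured as the Euclidean distance over the 4 libraries. The nearest had 48.1% under CF Im 68 siRNA, 98.1% under CstF-64 siRNA, 97.5% under control siRNA and 99.5% without siRNA.

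HSP90AB1, the constitutive partner of HSP90AA1, ended at 1 main site in all 4 libraries. Its window held 71.9 RPM under CF Im 68 siRNA (920 reads), 47.3 RPM under CstF-64 siRNA (347 reads), 86.4 RPM under control siRNA (1161 reads) and 51.7 RPM without siRNA (817 reads). The CF Im 68 siRNA library lay between the controls and the CstF-64 siRNA library below both. The log2 ratio of control siRNA to no siRNA was 0.74 (0.61 to 0.87). The CstF-64 siRNA library was lower than control siRNA at -0.87 (-1.05 to -0.70), and its ratio to no siRNA, -0.13 (-0.31 to 0.05), had an interval that included 0.

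The last site of HSP90AB1, at 44221620 on chromosome 6, held 92.8% of reads under CF Im 68 siRNA (91.0 to 94.4%), 98.0% under CstF-64 siRNA (95.9 to 99.2%), 94.4% under control siRNA (92.9 to 95.7%) and 92.7% without siRNA (90.6 to 94.3%). A second site 105 nt upstream had 6.30% under CF Im 68 siRNA (58 reads), 0.865% under CstF-64 siRNA (3 reads), 2.41% under control siRNA (28 reads) and 4.90% without siRNA (40 reads). It was scarcest under CstF-64 siRNA and most used under CF Im 68 siRNA. The ratio of its level under CstF-64 siRNA to control siRNA was 0.196, with a log2 interval of -4.71 to -0.66.

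HSPA8, the gene of the abundant constitutive HSC70, had few reads here. Its window held 5.63 RPM under CF Im 68 siRNA (72 reads), 5.45 RPM under CstF-64 siRNA (40 reads), 4.69 RPM under control siRNA (63 reads) and 2.09 RPM without siRNA (33 reads). Its mean of 4.46 RPM was below the median locus of 7.99 RPM, and 11191 of 18156 loci were higher. The no siRNA library was the lowest, and the ratio of control siRNA to no siRNA was 1.17 on the log2 scale (0.54 to 1.82). Neither depletion could be told from control siRNA, at 0.26 for CF Im 68 siRNA (-0.24 to 0.78) and 0.22 for CstF-64 siRNA (-0.39 to 0.81).

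RefSeq lists 20 pseudogenes named after HSPA8 and 22 named after HSPD1, against 5 of the HSP90AA family, 6 of the HSP90AB family, 2 of HSPA9, 1 of HSPA5 and 0 of HSPA13. How reads that match several places were treated is not given in the sources used here. Whether such copies lowered the counts of HSPA8 was not tested, and levels of the other genes with copies share this uncertainty. The last site, at 122928199 on chromosome 11, held 91.7% of HSPA8 reads under CF Im 68 siRNA (66 reads), 100% under CstF-64 siRNA (40 reads), 81.0% under control siRNA (51 reads) and 78.8% without siRNA (26 reads). The remaining 3 sites had at most 3 reads in any library, so that a shift among them was not detectable at this depth.

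HSPA5, the BiP gene, had 141 RPM under CF Im 68 siRNA (1801 reads), 115 RPM under CstF-64 siRNA (843 reads), 156 RPM under control siRNA (2102 reads) and 79.1 RPM without siRNA (1251 reads). All 3 siRNA-treated libraries were above the no siRNA library. The log2 ratio to no siRNA was 0.83 for CF Im 68 siRNA (0.73 to 0.94), 0.54 for CstF-64 siRNA (0.41 to 0.66) and 0.98 for control siRNA (0.88 to 1.08). Against control siRNA, both depleted libraries were slightly lower, at -0.15 (-0.24 to -0.06) under CF Im 68 siRNA and -0.45 (-0.56 to -0.33) under CstF-64 siRNA.

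**Figure D4:**
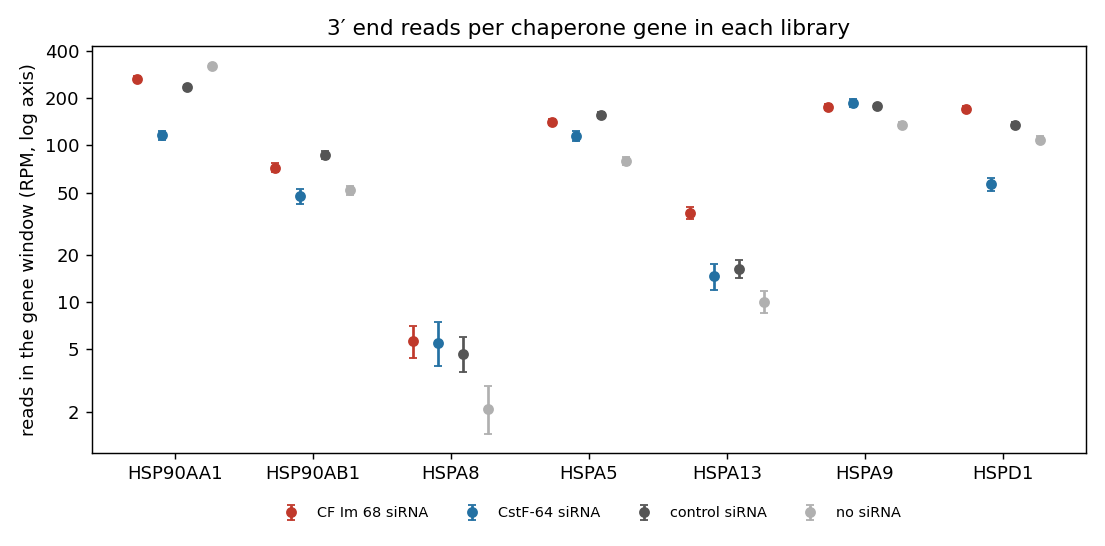
Total reads of each chaperone gene window in RPM on a log axis, for the 4 libraries, with exact Poisson 95% intervals that cover counting error only. HSP90AA1 and HSPD1 are lowest under CstF-64 siRNA, at 116 and 56.4 RPM, and HSPA13 is highest under CF Im 68 siRNA, at 37.1 RPM.

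HSPA5 ended at 2 sites 1384 nt apart, with the upstream one, at 127998518 on chromosome 9, in the lead. The upstream site held 95.5% of pair reads under CF Im 68 siRNA (94.4 to 96.4%), 92.6% under CstF-64 siRNA (90.6 to 94.3%), 90.9% under control siRNA (89.6 to 92.1%) and 89.8% without siRNA (88.0 to 91.4%). The CF Im 68 siRNA library was highest. Its rise of 4.56 points over control siRNA had an adjusted p of 9.5e-08 in Fisher's exact test of the 2 libraries, and 5.65 points separated it from no siRNA, so it passed the test. With 90.9% under control siRNA, a rise of 10 points was out of reach for this pair, and it could not count as moved to the proximal site. Below it in the tested loci were 48.6%, which places HSPA5 at the middle of the genome-wide change. CstF-64 siRNA differed from control siRNA by 1.70 points (adjusted Fisher exact p = 0.303), and control siRNA from no siRNA by 1.09 points (adjusted Fisher exact p = 0.431).

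Read by levels, the distal site of HSPA5 had 81 reads under CF Im 68 siRNA, 62 under CstF-64 siRNA, 189 under control siRNA and 126 without siRNA. On the log2 scale the distal site under CF Im 68 siRNA was at -1.15 to control siRNA (-1.54 to -0.77), while the proximal site was at -0.08 (-0.17 to 0.02). To no siRNA, the distal site was at -0.33 (-0.75 to 0.08) and the proximal site at 0.92 (0.81 to 1.03). The level of the distal site thus differed from 1 control beyond counting error, whereas its share was lower than in both.

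HSPA13 was the member with the highest ratio of total reads under CF Im 68 siRNA. Its window held 37.1 RPM under CF Im 68 siRNA (475 reads), 14.6 RPM under CstF-64 siRNA (107 reads), 16.3 RPM under control siRNA (219 reads) and 10.1 RPM without siRNA (159 reads). The CF Im 68 siRNA library was the highest, 2.28-fold above control siRNA (log2 interval 0.95 to 1.43) and 3.69-fold above no siRNA (log2 interval 1.62 to 2.15). CstF-64 siRNA was at -0.16 to control siRNA (-0.51 to 0.18) and at 0.53 to no siRNA (0.17 to 0.90). With DESeq2 size factors in place of read totals, the value to control siRNA was 0.06.

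The extra HSPA13 reads lay at upstream sites. The last site, at 15743439 on chromosome 21, held 15.4% of window reads under CF Im 68 siRNA (12.2 to 18.9%), 56.1% under CstF-64 siRNA (46.1 to 65.7%), 57.5% under control siRNA (50.7 to 64.2%) and 49.7% without siRNA (41.7 to 57.7%). A pair of neighbouring sites 42 nt apart, at 1681 and 1723 nt upstream, together held 67.4% under CF Im 68 siRNA (62.9 to 71.6%), 29.9% under CstF-64 siRNA (21.4 to 39.5%), 20.1% under control siRNA (15.0 to 26.0%) and 21.4% without siRNA (15.3 to 28.6%). Under CF Im 68 siRNA the upstream pair led, and in the other 3 libraries the last site did.

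In levels, the upstream pair of HSPA13 had 25.0 RPM under CF Im 68 siRNA (320 reads), 4.36 RPM under CstF-64 siRNA (32 reads), 3.27 RPM under control siRNA (44 reads) and 2.15 RPM without siRNA (34 reads). The last site had 5.71 RPM under CF Im 68 siRNA (73 reads), 8.17 RPM under CstF-64 siRNA (60 reads), 9.37 RPM under control siRNA (126 reads) and 4.998 RPM without siRNA (79 reads). The higher total thus lay at the upstream pair, with the last site inside the range of the other libraries. Counted at the last site alone, the log2 ratio of CF Im 68 siRNA to control siRNA was -0.72 (-1.15 to -0.29), the reverse of the total.

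A further site of HSPA13, 1049 nt upstream of the last, was low under CF Im 68 siRNA. It had 6 reads under CF Im 68 siRNA, 11 under CstF-64 siRNA, 27 under control siRNA and 29 without siRNA, or 1.26%, 10.3%, 12.3% and 18.2% of window reads in that order. The most upstream pair of sites, 2466 and 2500 nt before the last, had 46 reads under CF Im 68 siRNA, 1 under CstF-64 siRNA, and 0 under control siRNA and without siRNA. The share of this pair under CF Im 68 siRNA was 9.68% (7.18 to 12.7%). Both of its sites averaged below 1 RPM and reached the 1% limit only through their CF Im 68 siRNA reads. Their near absence elsewhere is therefore a description and carries no evidence. By the limit of 3 counts, a count of 0 allows up to 1.37% of the 219 reads under control siRNA and up to 1.89% of the 159 reads without siRNA, and the upper ends of the exact intervals were 1.67% and 2.29%.

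The tested pair of HSPA13, 1681 nt apart, had a proximal share of 74.2% under CF Im 68 siRNA (68.7 to 79.2%), 28.6% under CstF-64 siRNA (19.2 to 39.5%), 21.3% under control siRNA (15.2 to 28.4%) and 16.8% without siRNA (9.94 to 25.9%). CF Im 68 siRNA was 53.0 points above control siRNA, and 99.6% of the tested loci had a lower value. HSPA13 too was picked for its move, so this rank restates the pick and carries no evidence. CstF-64 siRNA was 7.32 points above control siRNA, within overlapping intervals. Formed on the controls alone, the pair was another one, the sites at 1049 nt and at the last position. It had 7.59% under CF Im 68 siRNA, 15.5% under CstF-64 siRNA, 17.6% under control siRNA and 26.9% without siRNA. The CF Im 68 siRNA library, with 6 and 73 reads at these sites, was the lowest, the reverse of its direction in the first pair. This second pair did not count as moved. Whether HSPA13 counted as moved therefore depended on letting the depleted libraries take part in choosing the sites. The choice on the controls was close. Under control siRNA and without siRNA, the site at 1049 nt had 2.01 and 1.83 RPM. The site at 1681 nt had 2.53 and 1.01 RPM, and together with its neighbour at 1723 nt 3.27 and 2.15 RPM.

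By the 4 proximal shares, the loci most like HSPA13 were on chromosome 14 minus at 51101790 and 51100360, on chromosome 6 plus at 34840494 and 34845290, and on chromosome 6 minus at 10983646 and 10980995 (hg19), at distances of 7.33, 8.52 and 8.90 points. The first had 79.2% under CF Im 68 siRNA, 31.3% under CstF-64 siRNA, 23.0% under control siRNA and 21.2% without siRNA.

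HSPA9, the mortalin gene, was level across the siRNA-treated libraries. It had 176 RPM under CF Im 68 siRNA (2253 reads), 186 RPM under CstF-64 siRNA (1367 reads), 177 RPM under control siRNA (2382 reads) and 134.5 RPM without siRNA (2126 reads). The 3 siRNA-treated libraries lay close together and above no siRNA. The log2 ratio to control siRNA was -0.01 for CF Im 68 siRNA (-0.09 to 0.07) and 0.07 for CstF-64 siRNA (-0.03 to 0.17, and 0.30 with DESeq2 size factors). To no siRNA the ratios were 0.39 for CF Im 68 siRNA (0.30 to 0.48), 0.47 for CstF-64 siRNA (0.37 to 0.57) and 0.40 for control siRNA (0.31 to 0.48).

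Of the 6 HSPA9 sites, the one at 137891025 on chromosome 5, 453 nt before the last, led in each library, with 66.8% of window reads under CF Im 68 siRNA, 77.6% under CstF-64 siRNA, 68.9% under control siRNA and 65.3% without siRNA. A pair of upstream sites 79 nt apart together held 16.5% under CF Im 68 siRNA (15.0 to 18.1%), 7.90% under CstF-64 siRNA (6.53 to 9.46%), 12.8% under control siRNA (11.5 to 14.2%) and 20.7% without siRNA (19.0 to 22.5%). The share at these sites was lowest under CstF-64 siRNA, and the control libraries also differed.

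In the tested HSPA9 pair, with sites 493 nt apart, the proximal share was 17.1% under CF Im 68 siRNA (15.4 to 18.9%), 9.01% under CstF-64 siRNA (7.42 to 10.8%), 14.1% under control siRNA (12.6 to 15.8%) and 20.3% without siRNA (18.4 to 22.2%). CstF-64 siRNA was the lowest, by 5.12 points against control siRNA (adjusted Fisher exact p = 0.000185) and by 11.3 points against no siRNA. It therefore missed the 10 points against 1 of the controls, and control siRNA minus no siRNA was itself -6.14 points (adjusted Fisher exact p = 7.3e-06). CF Im 68 siRNA was 2.99 points above control siRNA (adjusted Fisher exact p = 0.0257) and at -3.15 points from no siRNA, which is inside the span of the controls.

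The smaller of the upstream HSPA9 sites, 867 nt before the last, had 60 reads under CF Im 68 siRNA, 3 under CstF-64 siRNA, 35 under control siRNA and 87 without siRNA. Its log2 ratio under CstF-64 siRNA was -2.67 to control siRNA (-5.02 to -1.01) and -3.75 to no siRNA (-6.06 to -2.16). A site 11662 nt before the last held 2.04% of HSPA9 reads under CF Im 68 siRNA (46 reads), 1.32% under CstF-64 siRNA (18 reads), 1.09% under control siRNA (26 reads) and 1.13% without siRNA (24 reads). These were small parts of the transcript ends of this gene in each library.

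HSPD1, the HSP60 gene, showed its main difference in the total. Its window held 170.5 RPM under CF Im 68 siRNA (2181 reads), 56.4 RPM under CstF-64 siRNA (414 reads), 135 RPM under control siRNA (1812 reads) and 109 RPM without siRNA (1720 reads). The CstF-64 siRNA library was the lowest, at log2 ratios of -1.26 to control siRNA (-1.41 to -1.10) and -0.95 to no siRNA (-1.11 to -0.79). The CF Im 68 siRNA library was the highest, at 0.34 to control siRNA (0.25 to 0.43) and 0.65 to no siRNA (0.56 to 0.74).

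The last HSPD1 site, at 198351310 on chromosome 2, held 97.0% of window reads under CF Im 68 siRNA, 90.3% under CstF-64 siRNA, 90.6% under control siRNA and 91.7% without siRNA. The site 1298 nt upstream held 1.33% under CF Im 68 siRNA (29 reads, 0.892 to 1.90%), 2.42% under CstF-64 siRNA (10 reads, 1.16 to 4.40%), 4.25% under control siRNA (77 reads, 3.37 to 5.28%) and 4.48% without siRNA (77 reads, 3.55 to 5.56%). Its share under CF Im 68 siRNA was below both controls beyond counting error. A site 10760 nt upstream, with 1 read end position, held 0.321% under CF Im 68 siRNA (7 reads), 4.35% under CstF-64 siRNA (18 reads), 1.21% under control siRNA (22 reads) and 0.872% without siRNA (15 reads). Its level was 2.45 RPM under CstF-64 siRNA (1.45 to 3.87), 1.64 RPM under control siRNA (1.03 to 2.48) and 0.949 RPM without siRNA (0.531 to 1.57). The higher share under CstF-64 siRNA thus includes the fall of the HSPD1 total.

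At the window's edge, 2 small clusters of HSPD1 lay outside, 41 and 201 nt beyond the limit. They had 17 reads each under CF Im 68 siRNA, 8 and 4 under CstF-64 siRNA, 14 and 15 under control siRNA, and 11 and 31 without siRNA. These are few beside the reads of the last site just inside, which were 2115 under CF Im 68 siRNA, 374 under CstF-64 siRNA, 1642 under control siRNA and 1577 without siRNA.

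Set beside each other, the totals did not move as 1 group. Under CF Im 68 siRNA, 1 of the 7 genes (HSPA13) was at least 2-fold higher than in both controls on the log2 scale of RPM plus 1, where 5.02% of 17877 loci were, and 0 were at least 2-fold lower (1.86%). HSPA13 was picked for its site move, and its extra reads lay at the upstream pair. Its count therefore carries no evidence about chaperone genes. Under CstF-64 siRNA, 1 of the 7 (HSP90AA1) was at least 2-fold lower than in both controls (6.11% of loci), and 0 were higher (1.82%). The HSP90AA1 fall sat at the threshold. With TMM factors and with DESeq2 size factors, which place the CstF-64 siRNA library higher, 0 of the 7 passed, and its log2 ratio to control siRNA was -0.83 and -0.79. Between control siRNA and no siRNA, 0 of the 7 passed in either direction, against 5.20% of loci higher and 1.95% lower.

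The median log2 ratio over the 7 genes on that scale was 0.18 for CF Im 68 siRNA to control siRNA, against 0.02 over all loci, and 0.64 to no siRNA, against 0.13. For CstF-64 siRNA it was -0.44 to control siRNA, against -0.19 over all loci, and 0.47 to no siRNA, against -0.08. With TMM factors the median over all loci for CstF-64 siRNA to control siRNA was -0.03, and that of the 7 genes was -0.26. For control siRNA to no siRNA it was 0.64, against 0.11. The siRNA-treated libraries were thus above no siRNA in the median of the 7 genes, the control siRNA library included. The comparisons share control libraries, so they do not stand apart from each other.

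The genes with a heat shock element in the promoter did not move alike. The log2 ratio of CstF-64 siRNA to control siRNA was -1.02 for HSP90AA1, -0.87 for HSP90AB1, 0.22 for HSPA8 and -1.26 for HSPD1. The genes without that element had -0.45 for HSPA5, -0.16 for HSPA13 and 0.07 for HSPA9. To no siRNA, the values were -1.46, -0.13, 1.38 and -0.95 for the genes with the element, in the same order. They were 0.54, 0.53 and 0.47 for the genes without it. HSPA8 rested on 40 reads under CstF-64 siRNA and 63 under control siRNA, with an interval of -0.39 to 0.81. This grouping was made after the values were seen and carries no test.

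Site by site, 3 of the 22 chaperone sites were at least 2-fold higher than in both controls under CF Im 68 siRNA, where 8.57% of 33723 sites were. They were the HSP90AA1 site at 540 nt and the HSPA13 sites at 1681 and 1723 nt, so all 3 lie in the genes picked for their moves. None of the 22 was at least 2-fold lower (1.73% of sites) by read totals, but 2 were with TMM factors and 3 with DESeq2 size factors. Under CstF-64 siRNA, 4 of the 22 were at least 2-fold lower (5.07% of sites) and 0 were higher (1.65%). The 4 were the last site of HSP90AA1 (73 reads under CstF-64 siRNA) and minor sites of HSP90AB1 (3 reads), HSPA9 (3 reads) and HSPD1 (10 reads). Of the 4, 3 belong to genes not picked for a move, and these 3 had few reads. The totals of HSP90AA1 and HSPD1 were also lower, at log2 ratios of -1.02 and -1.26 to control siRNA. The falls at their sites include the fall of these totals. Between control siRNA and no siRNA, 0 of 22 were higher (4.62% of sites) and 0 lower (1.80%).

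Within a site, read ends spread over 1 or more neighbouring nucleotides. The most used site of HSP90AA1 was sharp, with 98.5% of its reads at 1 nucleotide under CF Im 68 siRNA, 98.5% under CstF-64 siRNA, 98.1% under control siRNA and 98.9% without siRNA. HSPD1 was also sharp, with 96.5%, 94.9%, 94.3% and 97.4% in the same libraries. HSPA5 was diffuse in each library, since 5 nucleotides were needed to hold 90% of the reads, and the one that led over all 4 libraries together had 25.7% under CF Im 68 siRNA, 20.5% under CstF-64 siRNA, 28.1% under control siRNA and 28.4% without siRNA. Under CstF-64 siRNA a neighbouring nucleotide led, with 23.8%. In sites with at least as many reads the median was 70.1 to 72.6%, so that HSPA5 was more spread than the typical one of these.

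**Figure D5:**
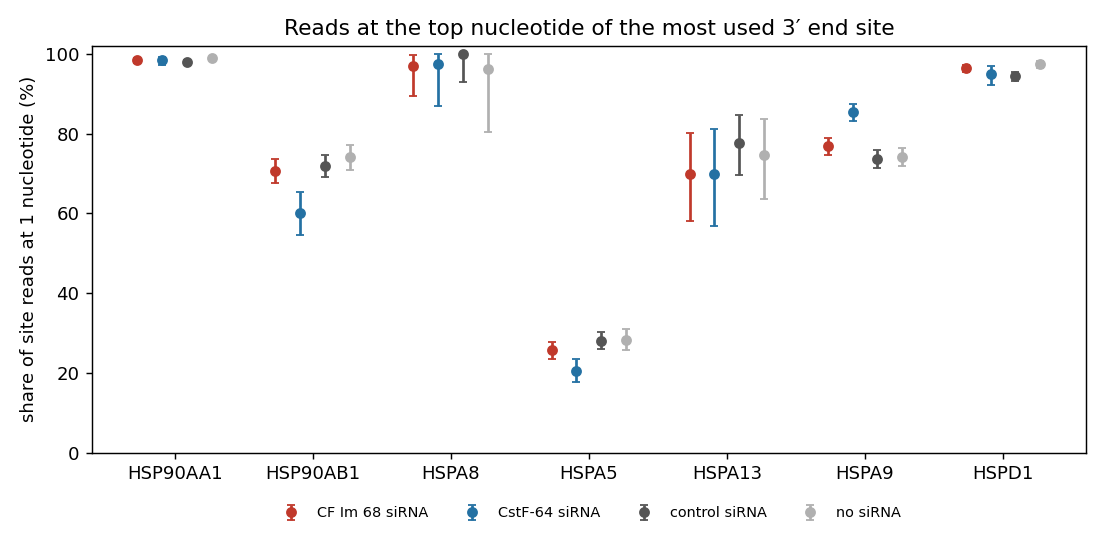
Share of the reads of each gene's most used 3′ end site that end at the nucleotide leading over all 4 libraries together (y axis, percent), for the 4 libraries, with exact Clopper-Pearson 95% intervals that cover counting error only. HSPA5 lies between 20.5 and 28.4%, HSP90AA1 between 98.1 and 98.9%, and the CstF-64 siRNA point of HSPA9 lies above the other libraries of that gene.

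HSPA9 and HSP90AB1 differed in this profile under CstF-64 siRNA. At the leading nucleotide, which was the same in each library, HSPA9 had 76.9% under CF Im 68 siRNA (74.7 to 79.0%), 85.4% under CstF-64 siRNA (83.1 to 87.5%), 73.7% under control siRNA (71.5 to 75.8%) and 74.2% without siRNA (71.8 to 76.4%). HSP90AB1 had 70.7% under CF Im 68 siRNA (67.5 to 73.8%), 60.0% under CstF-64 siRNA (54.6 to 65.2%), 71.9% under control siRNA (69.1 to 74.5%) and 74.1% without siRNA (70.8 to 77.2%). The CstF-64 siRNA library was thus the sharpest at HSPA9 and the most spread at HSP90AB1. The difference between 2 profiles was taken as the share of reads that would have to change position to make them equal. Counting error raises this difference where reads are few, and HSP90AB1 had 340 site reads under CstF-64 siRNA. Between CstF-64 siRNA and control siRNA it was 12.7% at HSPA9 and 16.7% at HSP90AB1, with 91.6% and 96.2% of sites below them. The sites ranked here are all those with at least as many reads as the site of the gene named. Between CstF-64 siRNA and no siRNA it was 12.5% at HSPA9 and 18.1% at HSP90AB1, with 78.9% and 90.4% of sites below. At HSPA5 it was 10.9% to control siRNA and 14.7% to no siRNA, with 87.4% and 84.8% of sites below. The same measure between control siRNA and no siRNA was 2.79% at HSPA9, 6.00% at HSP90AB1 and 7.60% at HSPA5. Below these lay 41.6%, 69.0% and 82.8% of sites, so the controls also differed at HSPA5. Counted within 10 nt of the leading nucleotide, the HSP90AB1 value between CstF-64 siRNA and control siRNA was 10.7%.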

How the data were processed

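A-seq read ends were measured in HEK293 cells in 4 libraries, 1 per group. The values were whole-number read counts per 3′ end position and strand, deposited by the authors without normalization. The submitters' processing notes name hg19 and GRCh37 as the build. The aligner, the treatment of reads with several matches and of PCR copies, and the rule by which 10.2 to 12.2% of the numbered positions had been removed are not given in the sources used here. Reads primed inside A-rich stretches were not separated.

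Positions within 25 nt were joined to the most read one, and clusters of at least 1 RPM on average were kept as sites (Python 3.11.15, numpy 2.4.6, scipy 1.17.1, pandas 2.3.3). Sites held 89.5 to 94.2% of a library's reads. A pair needed sites with at least 5% of locus reads. Ratios have exact conditional binomial intervals, shares Clopper-Pearson intervals and levels Poisson intervals. Locus totals needed 50 reads and used a pseudocount of 1 RPM. edgeR 4.0.16 and DESeq2 1.42.0 (R 4.3.3) gave scaling factors only, since no group had a replicate. The pair test was run on simulated counts that held counting error only, with rises planted in the proximal share. They had no variation between cultures, so they cannot show how the test behaves between conditions.

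All 7 members are named, with the 3 loci most like HSP90AA1 and HSPA13. The members and lists were chosen with earlier results of these data known. The counts of 2-fold sites were added after seeing the data. Sequences near 3′ ends and other chaperone genes were not analysed here, because no hg19 genome or annotation was used. The transcripts of the siRNA targets themselves were not analysed here, so the libraries are called depleted after their labels.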

Additional observations from a re-analysis of the deposited data

How the results depend on the processing

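Counts were recomputed under other settings, and the cause of a change was not tested where no reason is given. Of the chaperone pairs, 0 counted as moved to the proximal site under CF Im 68 siRNA when the libraries were thinned to the smallest, where HSPA13 no longer had 50 pair reads, and 0 when sites were chosen on the controls. With no siRNA as the only control, 1 (HSPA9) counted as moved to the distal site under CstF-64 siRNA, and 2 genes under CF Im 68 siRNA and 1 under CstF-64 siRNA were 2-fold higher. Chaperone genes 2-fold lower under CstF-64 siRNA numbered 0 with TMM and with DESeq2 factors and 2 with control siRNA as the only control. Chaperone sites 2-fold lower under CF Im 68 siRNA numbered 2 with TMM, 3 with DESeq2 factors and 2 with a pseudocount of 0.1 RPM. Over all loci, moves to the distal site under CF Im 68 siRNA were 191 with 1 pair read required, 207 with control siRNA alone and 426 with no siRNA alone, against 126. Under CstF-64 siRNA, no siRNA alone gave 911 proximal and 642 distal moves, against 393 and 172. Loci 2-fold lower under CF Im 68 siRNA were 709 with a pseudocount of 0.1 RPM, 795 with control siRNA alone and 1103 with no siRNA alone, against 332, and 2303 were higher with no siRNA alone, against 897. Under CstF-64 siRNA, 525 loci were higher with a pseudocount of 0.1 RPM and 1453 with no siRNA alone, against 325, and lower loci were 1991, 1892 with control siRNA alone and 2285, against 1092. With a pseudocount of 0.1 RPM, sites lower under CF Im 68 siRNA were 1468, against 583, and under CstF-64 siRNA 1161 were higher and 3735 lower, against 557 and 1709. With DESeq2 factors, 856 sites were higher under CstF-64 siRNA. The other 115 recomputed counts were within 1.5 times their first value.

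Of 126 recomputed values of single chaperone genes, 100 moved by less than counting error, 24 moved by more and 2 changed sign. The HSPA13 ratio of CF Im 68 siRNA to control siRNA was -0.72 (log2) at its last site alone, and the HSPA8 share difference was -0.574 points among its 2 most used sites. No paired analysis was possible because each group has 1 library. Depth limits HSPA8, with 33 to 72 reads a library, and HSPA13 under CstF-64 siRNA, with 107 reads.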

Other observations

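The window of HSP90AB1 also held a site on the opposite strand, at hg19 position 44221839 on chromosome 6, 219 nt past the last HSP90AB1 site. It had 136 reads under CF Im 68 siRNA, 79 under CstF-64 siRNA, 122 under control siRNA and 136 without siRNA, or 10.6, 10.8, 9.08 and 8.60 RPM in that order. The 2 strands therefore have ends close together here. The next RefSeq gene on that side is SLC35B2, which lies on the opposite strand (gene order from GRCh38.p14), and the site was not assigned to it by an hg19 annotation. Its levels lay within a narrow range in the 4 libraries, where HSP90AB1 had 71.9 RPM under CF Im 68 siRNA, 47.3 RPM under CstF-64 siRNA, 86.4 RPM under control siRNA and 51.7 RPM without siRNA.

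In HSP90AA1, the position 102547971, which lies 40 nt upstream of the site at 540 nt and so outside its 25 nt, had 21 reads under CF Im 68 siRNA and 0 in the CstF-64 siRNA, control siRNA and no siRNA libraries. The site at 540 nt had 1497 reads under CF Im 68 siRNA, 79 under CstF-64 siRNA, 100 under control siRNA and 165 without siRNA. HSP90AA1 was picked for its move under CF Im 68 siRNA. The counts of 0 are therefore a description and carry no evidence.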
